A study of Homo sapiens with 5 samples.

Results

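Transcripts of 10 heat shock chaperone genes were followed in HT1080 cells, a human fibrosarcoma line, in 3D collagen. The genes were taken by symbol from 27189 genes listed in each library. No cut on their values was used, but earlier results of these data were known. They were the cytosolic HSP90 genes HSP90AA1 and HSP90AB1, the cytosolic HSP70 genes HSPA1A, HSPA1B and HSPA8, the HSP70 partner DNAJB1, the small heat shock protein gene HSPB1 and the mitochondrial genes HSPA9, HSPD1 and HSPE1. All 10 were listed in every library, and all 10 had reads in LD, IL-6 and IL-8, against 8 in RM and 9 in HD. The cells had been embedded in type I collagen at 2 mg per ml and kept for 24 h. LD cells were seeded at 10 cells per cubic mm without cytokine, and HD cells at 50 cells per cubic mm without cytokine. The remaining conditions were seeded as LD and received recombinant IL-6 (IL-6), recombinant IL-8 (IL-8) or IL-6 and IL-8 at a ratio of 5 to 2 (RM). The design asks whether the cytokines, alone or together, move cells at low density toward the expression state of dense culture. Each condition was 1 library from a single experiment, so no difference below has a replicate check, no test was possible, and every interval covers the counting of reads only.

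Heat shock chaperones bind unfolded protein. HSP70 proteins bind short exposed stretches, J proteins such as DNAJB1 bring them substrate and start their ATP cycle, and HSP90 acts later on kinases, steroid receptors and other clients. HSPA9, HSPD1 and HSPE1 do the same work in mitochondria, where the HSPD1 chaperonin ring is closed by the HSPE1 lid. HSPA1A, HSPA1B, DNAJB1, HSPB1 and HSP90AA1 are textbook targets of heat shock factor HSF1 and are called inducible here. The other 5 genes are called constitutive, although stress can raise them too. HSF1 binds repeats of GAA and its complement TTC, known as heat shock elements.

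Sequences are shown first because they set how well 2 of the genes can be told apart. HSPA1A and HSPA1B lie next to each other, with 9795 bases between them. Their coding sequences of 1926 bases differ at 4 bases, with an identical run of 1709 bases. The opening 90 bases of the coding sequences, from GENCODE 29 transcripts, are given here with HSPA8 for contrast. Capitals mark the 23 bases at which HSPA8 differs from HSPA1A.
HSPA1A: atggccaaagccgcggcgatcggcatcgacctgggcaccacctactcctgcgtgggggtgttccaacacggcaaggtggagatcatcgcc
HSPA1B: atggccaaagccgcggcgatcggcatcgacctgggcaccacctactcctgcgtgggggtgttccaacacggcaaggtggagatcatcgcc
HSPA8: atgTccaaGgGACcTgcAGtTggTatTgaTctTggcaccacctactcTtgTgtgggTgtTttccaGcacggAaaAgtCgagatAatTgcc
The HSPA1A and HSPA1B stretches are the same letter for letter. HSPA1A and HSPA8 share no coding run above 23 bases.

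The reads were 50 bases long and single-ended. Of all windows of 50 bases along the transcript, 72.6% in HSPA1A occur also in HSPA1B, and 73.5% in HSPA1B occur in another annotated gene. The share was 52.9% in HSPE1, where 25.7% of windows occur in annotated HSPD1 transcripts and 16% in the readthrough gene HSPE1-MOB4. It was 25% in HSPD1, 21.4% in HSP90AA1, 18.8% in HSP90AB1, 15.4% in HSPA8 and 11.4% in HSPB1, for which the gene sharing most windows was a pseudogene. DNAJB1 at 2.57% and HSPA9 at 3.95% were nearly free of such windows. Levels of HSPA1A, HSPA1B and HSPE1 taken singly are therefore uncertain.

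Upstream sequence is shown for the inducible HSP70 pair, their J partner and the most abundant constitutive HSP70 and HSP90 genes, with heat shock element letters in capitals. It comes from RefSeq promoters on GRCh38.p14, each stretch 5′ to 3′ on the strand of its gene, and leaves out annotated exon bases. The submitters' processing notes list GRCh37 and hg19 for the reads, so these positions are those of the reference and not of the read alignment.
HSPA1A, chr6:31815314-31815463, plus strand: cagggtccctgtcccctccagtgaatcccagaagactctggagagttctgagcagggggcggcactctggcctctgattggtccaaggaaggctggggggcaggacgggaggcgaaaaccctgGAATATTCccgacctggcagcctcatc
HSPA1B, chr6:31827510-31827659, plus strand: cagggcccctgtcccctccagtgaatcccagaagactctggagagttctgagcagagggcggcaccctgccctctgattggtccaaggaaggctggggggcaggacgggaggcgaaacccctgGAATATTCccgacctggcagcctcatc
DNAJB1, chr19:14518421-14518570, minus strand: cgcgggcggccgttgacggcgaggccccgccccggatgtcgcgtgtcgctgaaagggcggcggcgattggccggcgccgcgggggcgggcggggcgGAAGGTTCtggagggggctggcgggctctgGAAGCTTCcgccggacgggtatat
HSPA8, chr11:123062336-123062386, minus strand: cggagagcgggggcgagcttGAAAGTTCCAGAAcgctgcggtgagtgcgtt
HSP90AB1, chr6:44247716-44247865, plus strand: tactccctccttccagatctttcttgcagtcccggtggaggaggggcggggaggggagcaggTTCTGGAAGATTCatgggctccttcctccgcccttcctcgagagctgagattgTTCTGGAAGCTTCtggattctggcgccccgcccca
The motifs searched were GAANNTTC, TTCNNGAA and their 3-unit forms, in which NNGAA follows GAANNTTC or NNTTC follows TTCNNGAA. Both strands were read from 250 bases before to 50 bases after each start, and a 3-unit match holds matches to both shorter motifs.

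Of the 16 annotated starts of the 10 genes, 9 held GAANNTTC, 5 TTCNNGAA and 4 a 3-unit form. Of all 35116 promoters, 6.77% held GAANNTTC, 7.74% TTCNNGAA and 0.49% a 3-unit form. Counted by gene, with up to 3 starts each, 8 genes held GAANNTTC, 5 TTCNNGAA and 4 a 3-unit form. The genes with the 3-unit form were HSP90AA1, HSP90AB1, HSPA8 and HSPD1. HSPA1A and HSPA1B each held a single GAANNTTC, and their upstream sequences were identical at 235 of 249 bases. HSPE1 was the gene with none of these letters in its window. HSPD1 and HSPE1 start head to head on chromosome 2 with 104 bases between their starts. The match of letters is a description and says nothing of binding in these cells.

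Depth differed between the libraries. Total reads ran from 5096134 to 7118545 in LD, IL-6, IL-8 and RM and came to 926376 in HD, and RNA5-8S5, a ribosomal RNA gene, took 76.9 to 79.6% of them in the 4 and 51.5% in HD. A count of 0 allows up to 3 reads, or 0.421 to 0.589 CPM (reads scaled to a library total of 1000000) in the 4 libraries and 3.24 CPM in HD. HD also stood apart in its makeup. Reads fell on 226 of 368 olfactory receptor genes in HD and on 10 to 32 in the others. Summed TPM (abundance corrected for transcript length and scaled to a library sum of 1000000) of the 7 mesenchymal markers listed, led by VIM, S100A6 and LGALS1, was 6803 to 9414 in the 4 libraries and 2686 in HD. Of these, THY1 went the other way, at 1.81 TPM in LD, 0 with IL-6, IL-8 and RM and 3.56 in HD. S100A6 differed little, at 1703 TPM in HD against 2018 to 2329. Of 5 epithelial markers, 4 had reads in HD and at most 1 in any other library, with summed TPM of 42.3 against 0 to 0.92 and KRT5 at 0 throughout. The leukocyte markers PTPRC, CD3E and LYZ all had reads in HD, at a summed TPM of 189 against 1.12 to 4.27 elsewhere, and CD3E was at 0 outside HD. A source label calls the cells epithelial and another fibrosarcoma, and the epithelial markers were at or near 0 outside HD. CAV1 and CLDN4 were not analysed here. The part of these features in the HD values below was not tested.

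HSP90AB1, the constitutive cytosolic HSP90, was the most abundant of the genes in every library. Its level was 2144 TPM in LD from 8038 reads, 1810 with IL-6, 1343 with IL-8, 1388 with RM and 171 in HD from 95 reads. In TPM LD was highest and HD was far below all others. On that scale IL-8 and RM differed by less than the counting error (ratio of RM to IL-8 1.03, 95% interval 0.991 to 1.08). HSP90AB1 in HD was 12.6-fold below LD (10.3 to 15.5). HSP90AA1, its inducible paralogue, stood at 423 TPM in LD, 417 with IL-6, 272 with IL-8, 202 with RM and 139 in HD. In TPM LD and IL-6 could not be told apart (1.01-fold, 0.939 to 1.09), and each later step in that order exceeded the counting error. The step from IL-6 to IL-8 depended on the scaling. With the counts scaled by median ratio, HSP90AA1 was -0.16 log2 units from LD with IL-6 and -0.14 with IL-8. HSP90AA1 was 2.09-fold lower in RM than in LD (1.92 to 2.27) and 3.04-fold lower in HD (2.43 to 3.85).

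HSPA8, the constitutive HSP70, gave 468 TPM in LD, 390 with IL-6, 263 with IL-8, 198 with RM and 82.9 in HD. In TPM the 5 levels followed that order, with every step above the counting error. The steps ran from 1.2-fold between LD and IL-6 to 2.39-fold between RM and HD. With the counts scaled by median ratio, HSPA8 was -0.32 log2 units from LD with IL-6 and with IL-8 alike. Its step from IL-6 to IL-8 thus depended on the scaling. The inducible HSP70 genes were at far lower levels. HSPA1A had 13 reads in LD, 20 with IL-6, 31 with IL-8, 0 with RM and 1 in HD, and HSPA1B had 14, 12, 4, 24 and 1. HSPA1A was highest where HSPA1B was low, with IL-8, and had no read where HSPA1B was highest, in RM. In RM HSPA1A was at least 4.16-fold below the LD value and 12.9-fold below the IL-8 value by CPM, taking 3 reads for 0. Those folds leave out the counting error of LD (0.972 to 3.12 CPM) and of IL-8 (3.84 to 8.01). Both intervals lie above the 0.439 CPM of 3 reads in RM.

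**Figure D1:**
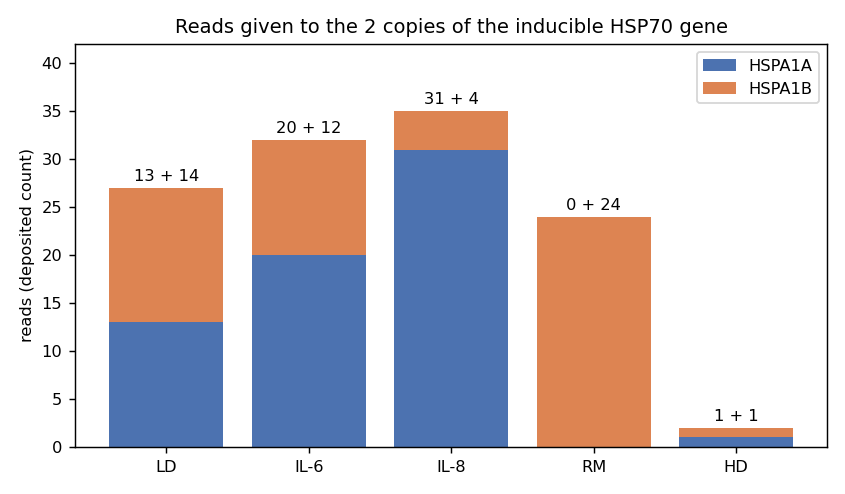
Deposited read counts of HSPA1A (blue) and HSPA1B (orange) stacked for each of the 5 libraries, with the counts written above each bar. The summed height stays between 24 and 35 reads in LD, IL-6, IL-8 and RM while the split between the copies runs from 31 and 4 with IL-8 to 0 and 24 in RM.

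The summed reads of the pair were steadier than either copy. They came to 27 in LD, 32 with IL-6, 35 with IL-8, 24 with RM and 2 in HD. In CPM the sum was 3.79 in LD (2.5 to 5.52), 6.28 with IL-6 (4.3 to 8.86), 6.37 with IL-8 (4.44 to 8.86), 3.51 with RM (2.25 to 5.22) and 2.16 in HD (0.261 to 7.8). The CPM ratio of the sum to LD was 1.66 for IL-6 (0.961 to 2.87), 1.68 for IL-8 (0.988 to 2.89), 0.925 for RM (0.511 to 1.67) and 0.569 for HD (0.0656 to 2.27), and each interval included equality. In TPM, the ratio was 1.92 for IL-6 (1.11 to 3.32), 2.21 for IL-8 (1.3 to 3.79), 0.921 for RM (0.509 to 1.66) and 0.215 for HD (0.0248 to 0.855), so a higher sum with either cytokine alone depended on the scale. HSPA1A took 48.1% of the pair in LD (exact interval 28.7 to 68.1%), 62.5% with IL-6, 88.6% with IL-8 (73.3 to 96.8%) and 0% with RM (0 to 14.2%). How the 24 RM reads were divided between sequences that share most windows was not tested.

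DNAJB1, the J protein that serves HSP70, was the inducible gene that differed from LD beyond counting error in every condition. Its level was 78.2 TPM in LD from 237 reads, 35.5 with IL-6, 31 with IL-8, 19.5 with RM and 13.4 in HD from 7 reads. Every other library was below LD, by 2.2-fold with IL-6 (1.69 to 2.89), 2.52-fold with IL-8 (1.93 to 3.34), 4.01-fold in RM (3 to 5.44) and 5.83-fold in HD (2.79 to 14.7). IL-6 and IL-8 did not differ beyond counting error, nor did RM and HD. HSPB1, the small heat shock protein HSP27, was scarcely read. It had 5 reads in LD, 6 with IL-6, 8 with IL-8, and none in RM or HD (0 reads each). In HD a count of 0 allows more than the LD level, so no fold can be given there. In RM HSPB1 was 1.6-fold or more below the LD value by CPM, with 3 reads taken for the count of 0. The LD interval, 0.228 to 1.64 CPM, reaches below those 3 reads (0.439 CPM in RM), so no difference is also allowed.

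HSPA9, the mitochondrial HSP70 also called mortalin, stood at 188 TPM in LD, 160 with IL-6, 131 with IL-8, 142 with RM and 19.2 in HD from 16 reads. IL-6, IL-8 and RM lay within 1.44-fold of LD (1.29 to 1.61 for IL-8, the lowest of them), and HD was 9.78-fold below LD (5.99 to 17.2). HSPD1, the HSP60 chaperonin, gave 143 TPM in LD, 145 with IL-6, 78.8 with IL-8, 57.5 with RM and 30 in HD. LD and IL-6 overlapped, and IL-8, RM and HD each lay below the library before it beyond counting error. HSPE1, the HSP10 lid, had 31.9 TPM in LD, 44.7 with IL-6, 23.1 with IL-8, 13.5 with RM and 37.1 in HD, from 17 to 56 reads. RM was lowest, at 2.36-fold below LD (1.46 to 3.88), and HD lay close to LD, at a ratio of 1.16 (0.633 to 2.03). HSPE1 was the exception to the low HD levels, and its HD difference on the log2 scale ran from -0.03 without RNA5-8S5 to 1.13 by CPM.

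**Figure D2:**
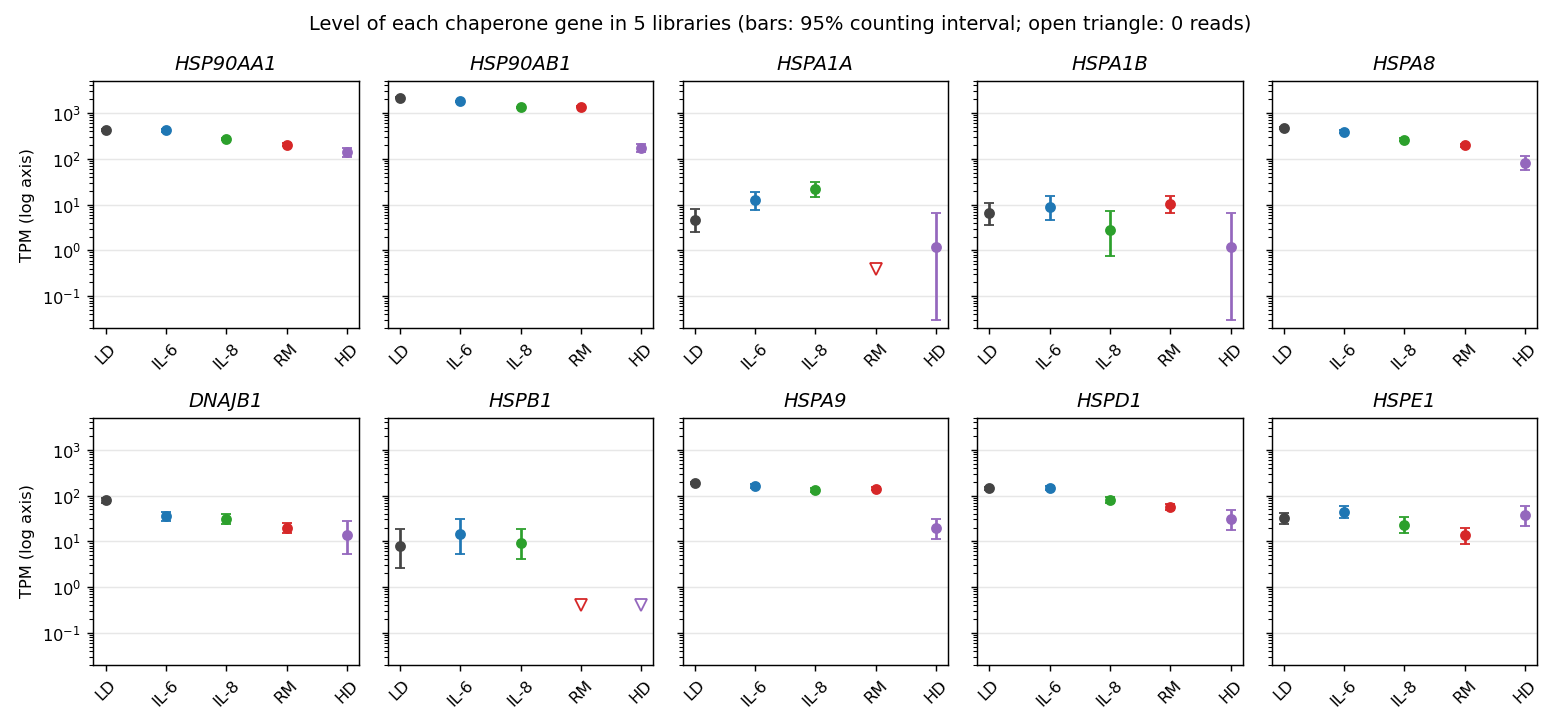
TPM on a log axis for each of the 10 genes in the 5 libraries (1 library per condition), with bars giving the 95% exact counting interval and open triangles, set at an arbitrary height, marking 0 reads. HSP90AB1 runs from 2144 TPM in LD to 171 in HD, while HSPE1 in HD (37.1) overlaps its LD level (31.9).

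Across the 10 genes, the highest TPM was in LD for 5, with IL-6 for 3 and with IL-8 and RM for 1 each. The lowest was in HD for 8 and in RM for 3, with HSPB1 at 0 in both. The highest and lowest libraries were not counted over other genes, so no share stands beside these counts. The 10 genes together took 0.788% of LD reads other than RNA5-8S5 (0.775 to 0.802% by Wilson's method), 0.689% with IL-6, 0.54% with IL-8, 0.511% with RM and 0.0603% in HD (0.0535 to 0.0679%). In these bulk samples, fewer cells of a type and less RNA per cell cannot be told apart.

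With IL-6, most of the genes stood near their LD level. A difference of at least 1 log2 unit on log2(TPM + 1), which is 2-fold for a well-expressed gene, was counted as past the threshold. On that scale 1 of 10 genes was lower, DNAJB1 at -1.12, where 7.47% of the 21163 genes tested were lower, and 1 was higher, HSPA1A at 1.25, where 9.84% were higher. Of these 21163 genes, 6896 reached 1 TPM in HD alone, so they could not be lower by 1 log2 unit in any comparison. They hold down the shares of all genes tested that were lower, here and below, and outside HD also the shares higher. None of the 6 chaperone genes with at least 10 reads in every library was past the threshold downward, against 4.81% of the 3597 genes so counted. The median over the 10 was -0.00 and that over all genes tested 0.00. Summed TPM was 3039, or 87% of LD (84.5 to 89.5%), with the 3 mitochondrial genes at 96.4% (88.5 to 105%). HSPA1A no longer passed when it was summed with HSPA1B (0.88) or counted by CPM (0.80).

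With IL-8, 8 of the 10 genes were below LD, mostly by less than 2-fold. Of all genes tested 46.2% were below LD, and of the 3597 with at least 10 reads in every library 63.7% were. The 6 well-counted genes lay between -0.85 (HSPD1) and -0.45 (HSPE1), and summed TPM was 2175, or 62.2% of LD (60.4 to 64.2%). DNAJB1 at -1.31 was the 1 gene past the threshold downward, where 16.4% of all genes tested and 15.1% of the well-counted genes were. HSPA1A at 2.00 was the 1 past it upward, where 7.99% of all genes were. The median was -0.65 over the 10 genes, 0.00 over all genes tested and -0.28 over the well-counted genes. Relative to that last median the 6 genes lay from -0.57 to -0.17. Median-ratio scaling of the counts moved the median of the well-counted genes to 0.17. Relative to it the 6 still lay from -0.55 to -0.23, but 0 of 10 were then past the threshold downward and 2 upward, HSPA1A at 2.01 and HSPB1 at 1.29. Under that scaling 14.4% of all genes tested were lower and 15.9% higher.

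RM, the condition with both cytokines, had lower levels of most of the genes, although the size depended on the scaling. In TPM 7 of 10 were lower by at least 1 log2 unit and 0 higher, where 20.4% of all genes tested were lower, 23.4% of the well-counted genes were lower and 6.44% were higher. The 7 were HSPB1 (-3.18), HSPA1A (-2.50), DNAJB1 (-1.95), HSPD1 (-1.30), HSPA8 (-1.24), HSPE1 (-1.18) and HSP90AA1 (-1.06). The first 2 values rest on 0 reads in RM and on the pseudocount, HSPB1 being -0.77 by CPM, and the summed HSPA1A and HSPA1B level was -0.11. By CPM 5 of 10 were lower by 1 log2 unit, with HSPE1 at -0.84. Shares of all genes past the threshold were not counted by CPM. HSP90AB1 at -0.63 and HSPA9 at -0.40 were lower by less, and HSPA1B was 0.59. The median of the 10 was -1.21, with 0.00 over all genes tested and -0.41 over the well-counted genes. Summed TPM was 2031, or 58.1% of LD (56.5 to 59.8%), and 47.6% without HSP90AB1 (45.3 to 50%).

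Scaling by median ratio put the well-counted median in RM at 0.28 and changed the sign of a pair of genes, HSP90AB1 to 0.12 and HSPA9 to 0.35. Under it 3 of 10 genes were past the threshold downward, HSPA1A, HSPB1 and DNAJB1, and 1 upward, HSPA1B at 1.46. Of all genes tested, 15.3% were lower under it and 14.6% higher. The summed level then was -0.02 on the log2 scale (-0.06 to 0.02). Position relative to the other genes moved less. Against the median of the well-counted genes, HSPD1 stood at -0.89, HSPA8 at -0.83, HSPE1 at -0.77, HSP90AA1 at -0.65, HSP90AB1 at -0.22 and HSPA9 at 0.01 in TPM, and 4 of the 6 lay at least 0.5 below it, as did 26.8% of the well-counted genes. Under median-ratio scaling 4 of 6 did, with 27.2% of the well-counted genes, and by CPM 3 of 6 did, with 24.9%. HSP90AA1, HSPA8, HSPD1 and DNAJB1 were also lower in RM than with either single cytokine in TPM. Against IL-6 the differences were -1.04, -0.98, -1.32 and -0.83, and against IL-8 they were -0.43, -0.41, -0.45 and -0.64. In TPM the median of the well-counted genes against LD fell too, from 0.00 with IL-6 and -0.28 with IL-8 to -0.41 in RM. By median ratio the 4 genes against LD were -0.35, -0.62, -0.57 and -1.22 in RM. With IL-6 they were then -0.16, -0.32, -0.02 and -1.12, and with IL-8 -0.14, -0.32, -0.38 and -0.83.

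HD had the lowest levels for 8 of the genes, a count not made over other genes. By the same threshold 9 of 10 were lower and 0 higher, where 17.9% of all genes tested were lower, 29% of the well-counted genes were lower and 61.9% of all genes tested were higher. Of the well-counted genes 33.9% were higher, and 6896 of the 21163 genes tested reached 1 TPM in HD alone. The 9 include HSPB1, with 0 reads in HD and no fold to give, and HSPA1A and HSPA1B with 1 read each. By CPM 6 of 10 were lower and 1, HSPE1, higher. The shares past the threshold are in TPM and were not counted by CPM, which put the median of the well-counted genes at 0.48. Differences ran from -3.64 for HSP90AB1 and -3.22 for HSPA9 to -1.37 for HSPA1A, with HSPE1 at 0.21. The intervals of the HD to LD ratio for HSPA1A and HSPA1B included equality. The median was -2.34, with 1.86 over all genes tested and 0.11 over the well-counted genes. Summed TPM was 495, or 14.2% of LD (12.5 to 16%), and 24% without HSP90AB1 (20.5 to 27.9%). Of the 6 well-counted chaperone genes, 5 lay at least 0.5 below the median of the well-counted genes under each of the 4 scalings, as did 40.4% of the well-counted genes in TPM. HD also differed from LD in seeding density, in depth and in the marker genes above, and these cannot be told apart with 1 library.

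**Figure D3:**
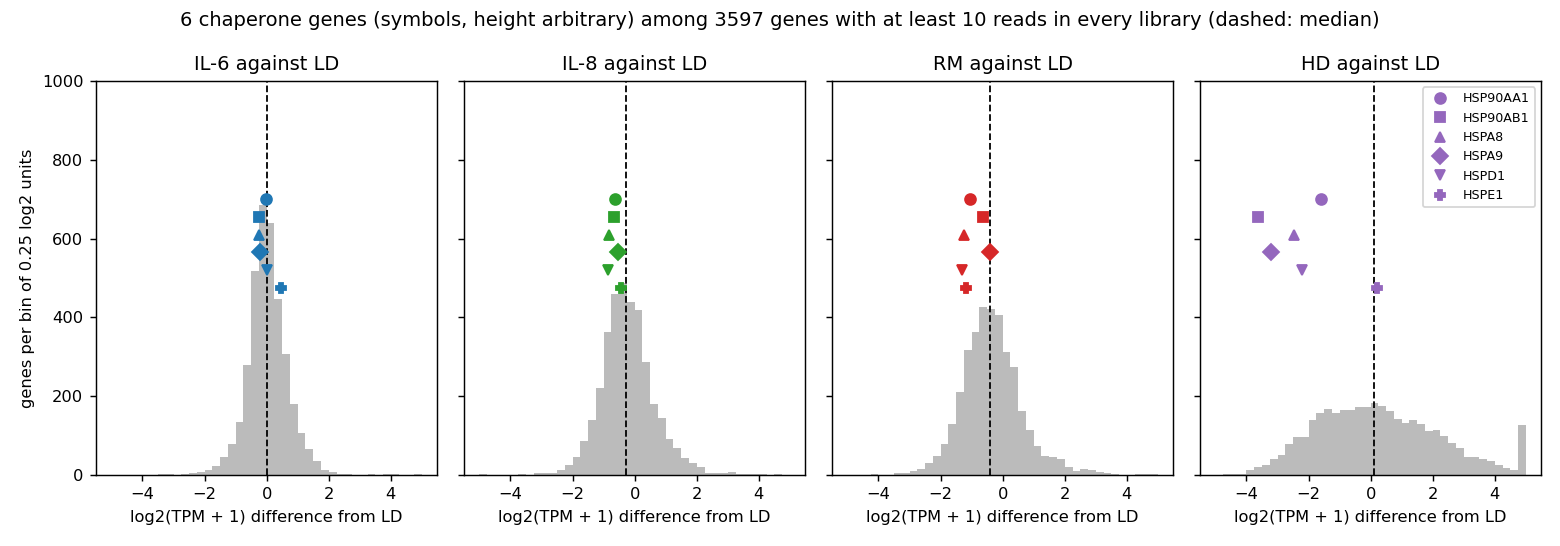
Histograms of the log2(TPM + 1) difference from LD over 3597 genes with at least 10 reads in every library (grey, bins of 0.25, values beyond 5 drawn at 5, dashed line at their median), with the 6 chaperone genes so counted as symbols at arbitrary height. In RM 5 of the 6 symbols lie left of the median at -0.41 (HSP90AB1 and HSPA9 change sign under median-ratio scaling), and in HD 5 lie far left of the median at 0.11.

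Ratios of genes within a library do not depend on how libraries are scaled to each other. The summed TPM of the 5 inducible genes over that of the 5 constitutive genes was 0.175 in LD (0.167 to 0.183), 0.191 with IL-6 (0.18 to 0.203), 0.183 with IL-8 (0.171 to 0.196), 0.129 with RM (0.12 to 0.138) and 0.455 in HD (0.35 to 0.589). RM was below and HD above the other 3, with no overlap of the intervals. HSP90AA1 supplied most of the inducible reads, and its ratio to HSP90AB1 gave the same order, at 0.197 in LD (0.187 to 0.207), 0.231 with IL-6 (0.216 to 0.246), 0.202 with IL-8 (0.188 to 0.218), 0.146 with RM (0.135 to 0.157) and 0.814 in HD (0.598 to 1.11). HSP90AB1 made up 61.4% of the summed TPM in LD, 59.6% with IL-6, 61.7% with IL-8, 68.3% with RM and 34.5% in HD.

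The balance between mitochondrial and cytosolic HSP70 moved differently. HSPA9 over HSPA8 was 0.402 in LD (0.37 to 0.437), 0.41 with IL-6 (0.367 to 0.458), 0.496 with IL-8 (0.439 to 0.56), 0.719 with RM (0.641 to 0.807) and 0.232 in HD (0.12 to 0.43). RM stood above all other libraries, and HD was lowest with an interval that overlapped those of LD and IL-6. HSP90AB1 over HSPA8 was 4.59 in LD, 4.64 with IL-6, 5.1 with IL-8, 7.02 with RM (6.42 to 7.69) and 2.06 in HD (1.39 to 3.13). HSPD1 over HSPE1 was 4.49 in LD (3.4 to 6.03), 3.24 with IL-6, 3.41 with IL-8, 4.25 with RM (2.82 to 6.63) and 0.809 in HD (0.393 to 1.67). That pair kept its ratio within counting error in LD, IL-6, IL-8 and RM, and HD was lower, with 18 and 17 reads.

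**Figure D4:**
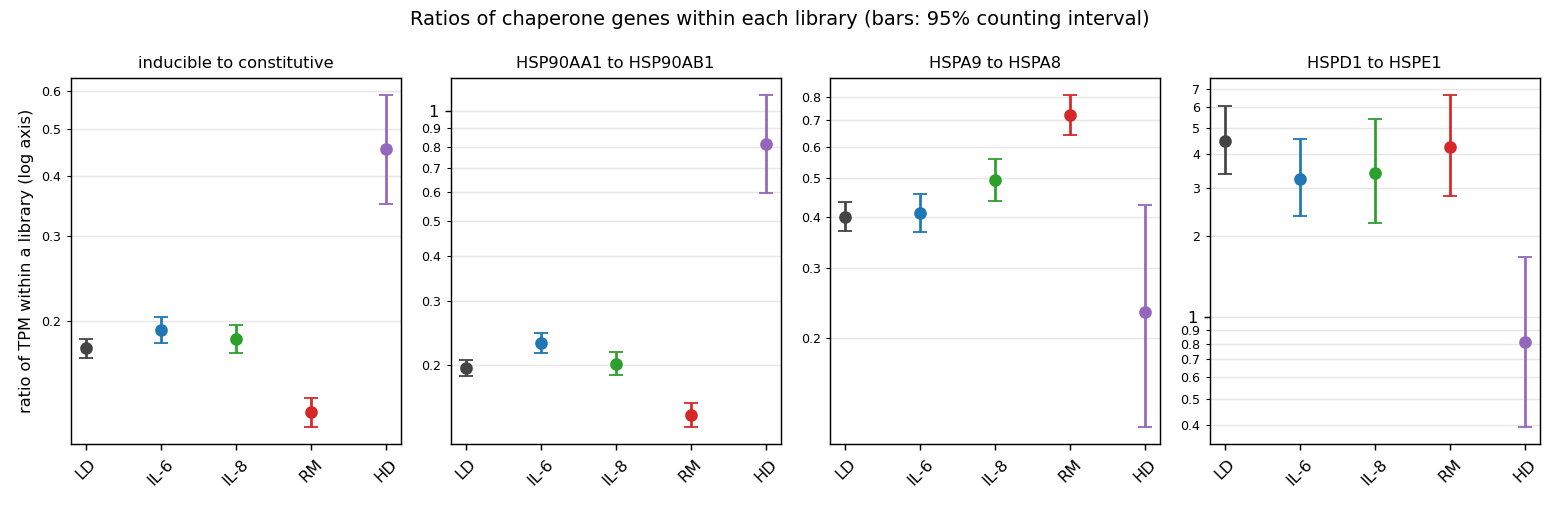
Ratio of TPM within each library on log axes, each panel with its own scale, for the inducible over the constitutive genes, HSP90AA1 over HSP90AB1, HSPA9 over HSPA8 and HSPD1 over HSPE1, with bars giving 95% exact counting intervals. RM is lowest in the left panel (0.129) and highest for HSPA9 over HSPA8 (0.719), and HD lies far from the other libraries for HSP90AA1 over HSP90AB1 (0.814) and HSPD1 over HSPE1 (0.809).

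Patterns over the 5 libraries were compared for the 6 well-counted genes by the distance between log2(TPM + 1) profiles, each centred on its mean. Among the genes themselves the closest pairs were HSPA8 with HSPD1 (0.33) and HSP90AB1 with HSPA9 (0.34). The paralogues HSP90AA1 and HSP90AB1 were 1.93 apart and the partners HSPD1 and HSPE1 1.99. Among 3591 other genes, the nearest to HSP90AA1 was CCT5 (distance 0.09), a subunit of the cytosolic chaperonin, at 73.4 TPM in LD, 74 with IL-6, 51.2 with IL-8, 36.2 with RM and 24.3 in HD. The nearest to HSP90AB1 was PSMB7 (0.15), a proteasome subunit, to HSPA8 GARS (0.18), a glycyl-tRNA synthetase, to HSPA9 TPR (0.13), a nuclear pore protein, to HSPD1 NOLC1 (0.14), a nucleolar protein, and to HSPE1 NF1 (0.26), a RAS regulator. These are descriptions over 5 libraries, and HD has the widest range in most of them.

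A further 55 heat shock genes in 6 lists were read beside the 10. At the same threshold 7 were lower and 5 higher with IL-6, 17 and 3 with IL-8, 12 and 6 in RM, and 26 and 13 in HD. Of all genes tested, 7.47, 16.4, 20.4 and 17.9% were lower and 9.84, 7.99, 6.44 and 61.9% higher. In RM 21.8% of the 55 were lower, against 23.4% of the well-counted genes. The 20.4% of all genes tested is held down by genes that reached 1 TPM in HD alone. With at least 10 reads in the higher library the counts were 3 and 3 with IL-6, 12 and 3 with IL-8, 11 and 5 in RM and 25 and 8 in HD. The shares of all genes tested were not counted with that filter, so these counts have no matching share. Their medians were -0.10, -0.21, -0.41 and -0.87, against -0.00, -0.65, -1.21 and -2.34 for the 10 chaperone genes. No list had all its genes on 1 side of LD in HD.

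Heat shock factors and their binding protein were 4 genes, of which 2 were higher and 0 lower with IL-6, 1 and 0 with IL-8, 2 and 1 in RM and 1 and 2 in HD, where 9.84, 7.99, 6.44 and 61.9% of all genes tested were higher and 7.47, 16.4, 20.4 and 17.9% lower. Neither IL-6 call had 10 reads (HSF2 with 7 against 2 in LD, HSF4 with 8 against 4), nor had the HD call of HSF4, with 2, and their ratio intervals included equality. HSF1, which drives heat shock transcription, had 45.2 TPM in LD, 52.6 with IL-6, 71.7 with IL-8, 113 with RM and 12 in HD. HSF1 was highest in RM, by 1.31 log2 units over LD (2.05 by median ratio), where DNAJB1 was -1.95 (-1.22 by median ratio) and HSPA8 -1.24 (-0.62). HSBP1, which binds HSF1, had 38.9 TPM in LD, 36.9 with IL-6, 21.2 with IL-8, 17.2 with RM and 0 in HD. HSF4 was past the threshold upward with IL-8 (2.55) and RM (1.53), from 4 reads in LD.

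Of 11 HSP90 co-chaperones, 0 were lower with IL-6, 3 with IL-8, 5 with RM and 8 in HD, and 0, 1, 1 and 2 were higher, where 7.47, 16.4, 20.4 and 17.9% of all genes tested were lower and 9.84, 7.99, 6.44 and 61.9% higher. CDC37, which brings kinases to HSP90, had 424 TPM in LD and with IL-6, 525 with IL-8, 1632 with RM and 124 in HD. Its RM level, from 3582 reads, was 1.94 log2 units above LD and above the 1388 TPM of HSP90AB1 in that library, whereas in LD HSP90AB1 stood at 2144. STIP1, the adaptor between HSP70 and HSP90, had 294 TPM in LD, 236 with IL-6, 283 with IL-8, 172 with RM and 30.3 in HD. UNC45A, a myosin chaperone that binds HSP90, was -1.94 with IL-8 and -3.43 in HD, FKBP5 was 2.08 with IL-8 from 40 reads, CHORDC1 was -1.74 in RM and PPID was 3.30 in HD from 24 reads.

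Of 13 HSP70 relatives and co-factors, 2 were lower with IL-6, 5 with IL-8, 4 with RM and 6 in HD, and 0, 0, 1 and 4 were higher, where all genes tested gave 7.47, 16.4, 20.4 and 17.9% lower and 9.84, 7.99, 6.44 and 61.9% higher. STUB1, the ubiquitin ligase that binds HSP70 and HSP90, had 490 TPM in LD, 294 with IL-6, 464 with IL-8, 613 with RM and 44.2 in HD. HSPH1, an HSP110 protein that releases nucleotide from HSP70, had 91.3 TPM in LD, 105 with IL-6, 51.9 with IL-8, 36.7 with RM and 6.38 in HD. HSPBP1, another exchange factor, was -1.12 in RM. With IL-8, ST13 was -1.67 and HSPA4L -1.91, and with IL-6, BAG5 was -1.44 from 17 reads in LD and 3 with IL-6. HSPA2, an HSP70 best known from testis, had 9 reads in LD, 0 with IL-6, IL-8 and RM and 75 in HD, or 114 TPM.

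Of 8 other J proteins, 1 was lower with IL-6, 3 with IL-8, 0 with RM and 3 in HD, and 0, 0, 1 and 3 were higher, against 7.47, 16.4, 20.4 and 17.9% of all genes tested lower and 9.84, 7.99, 6.44 and 61.9% higher. The IL-6 call was DNAJB4, with 0 reads against 5 in LD. DNAJA1, a cytosolic J protein, had 149 TPM in LD, 118 with IL-6, 64.2 with IL-8, 87.4 with RM and 17.7 in HD. DNAJB5 was -1.07 with IL-8 and 1.41 with RM, from 80 reads in RM. DNAJC7 had 163 TPM in LD and 107 in RM, DNAJB2 114 and 157, and DNAJA4 was read in HD alone, with 10 reads. In RM DNAJC7 was -0.59 in TPM and 0.16 by median ratio. DNAJB2 was 1.13 in HD in TPM and -0.75 by median ratio. Of 6 other small heat shock proteins, 3 were lower with IL-6, 2 with IL-8, 1 with RM and 2 in HD, and 2 were higher in HD, against the same shares of all genes. With 10 reads in the higher library 1 stayed lower with IL-6, 0 with IL-8, 1 in RM and 1 in HD, and 1 higher in HD. The shares of all genes were not counted with that filter. The other IL-6 calls were CRYAB with 1 read against 4 and HSPB6 with 0 against 2, and the other HD call upward was HSPB3 with 1 read. HSPB8 had 20.4 TPM in LD, 9.55 with IL-6, 31.3 with IL-8, 1.88 with RM and 0 in HD, and HSPB7, known from heart, had 14 reads in HD and 0 elsewhere.

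Of 13 other mitochondrial chaperones and proteases, 1 was lower with IL-6, 4 with IL-8, 1 with RM and 5 in HD, and 3, 1, 1 and 1 were higher, where 7.47, 16.4, 20.4 and 17.9% of all genes were lower and 9.84, 7.99, 6.44 and 61.9% higher. TRAP1, the mitochondrial HSP90, had 63.3 TPM in LD, 72 with IL-6, 183 with IL-8, 258 with RM and 31.6 in HD. TRAP1 was 1.52 log2 units above LD with IL-8 and 2.01 with RM, where HSPD1 was -0.85 and -1.30. PAM16, of the import motor that works with HSPA9, had 113 TPM in LD, 114 with IL-6, 128 with IL-8, 79.6 with RM and 124 in HD. In RM PAM16 was -0.50 log2 units from LD in TPM and 0.93 by median ratio, so its direction depended on the scaling. TIMM44, of the same motor, was 1.33 with IL-6, and the protease AFG3L2 1.37. DNAJA3 was -1.80 with IL-8 and -1.74 in HD from 5 reads, and CLPX was -1.17 in RM. GRPEL1, the exchange factor of HSPA9, was -2.25 in HD from 3 reads. The HD level was 3.58-fold below LD for DNAJA3 (1.49 to 11.2) and 5.42-fold for GRPEL1 (1.77 to 27).

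**Figure D5:**
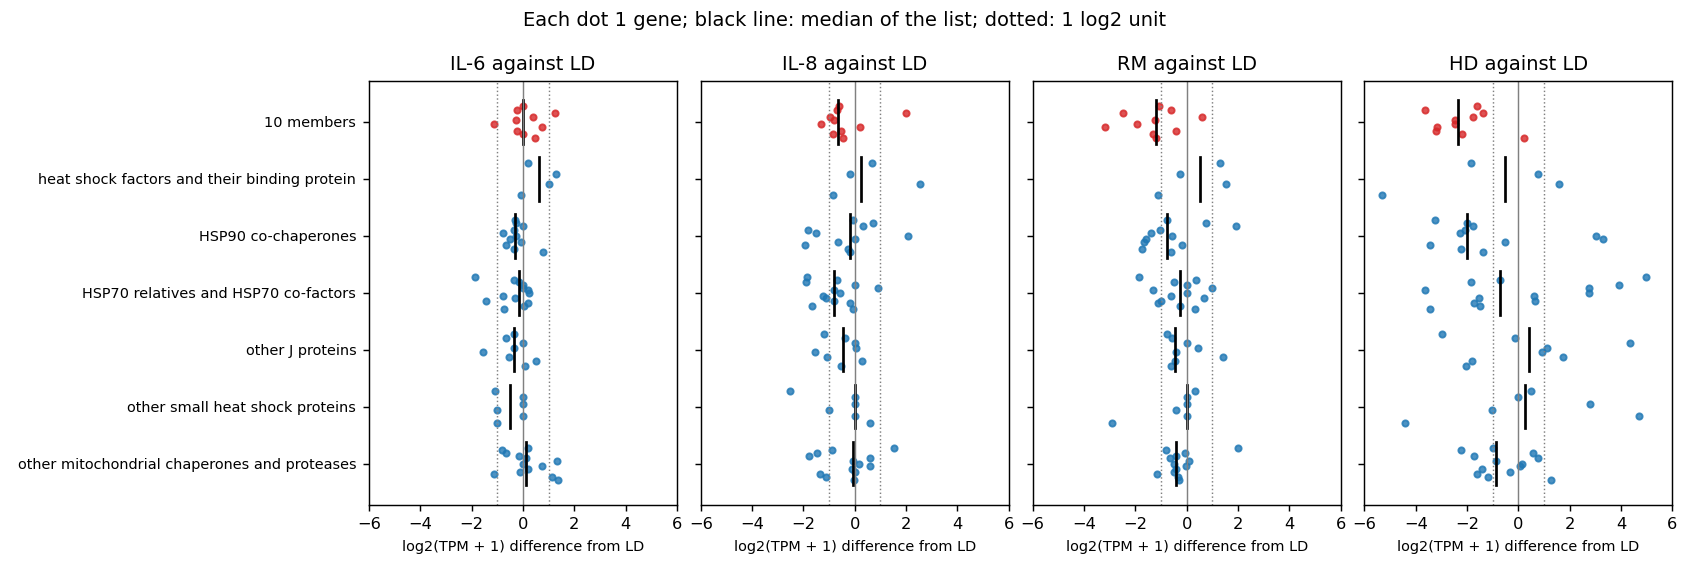
Difference from LD on log2(TPM + 1) for the 10 chaperone genes (red) and 6 lists of other heat shock genes (blue), 1 dot per gene, with black lines at list medians and dotted lines at 1 log2 unit. The red medians stand at -0.00, -0.65, -1.21 and -2.34 with IL-6, IL-8, RM and HD, and by median-ratio scaling the RM median is -0.46, with HSP90AB1 and HSPA9 above LD.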

How the data were processed

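From the total RNA of each matrix, mRNA was selected with oligo-dT, the whole cDNA pool was amplified with phi29 polymerase, libraries were made with Nextera XT, and 50-base single-ended reads were sequenced. Amplification of a small cDNA pool can distort levels between genes and libraries. The submitters' processing notes list Bowtie2 2.3.1, RSEM 1.2.25, GRCh37 and hg19, and the role of each build is not given in the sources used here. The authors deposited whole-number read counts and TPM per gene for each library, with no replicate. Depth ran from 926376 reads (HD) to 7118545 (LD), so HD is the least precise.

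Deposited TPM values summed to 934821 to 978521 and were rescaled to 1000000 per library. The fold threshold was applied, with a pseudocount of 1, to the 21163 genes that reached 1 TPM in any library. Exact 95% intervals from the counts were carried to TPM ratios and cover counting error only, since amplified reads are not independent molecules. No test was run and no p-value was computed. Alternatives were other pseudocounts, CPM, median-ratio scaling, scaling without RNA5-8S5, a stricter threshold and left-out genes.

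The 10 genes and the lists were chosen with earlier results of these data known. The named list genes were the 2 of highest mean TPM in each list and, per comparison, up to 2 with the largest difference of at least 1 log2 unit with at least 10 reads in the higher library. Of the genes, 10 of 10 were matched to RefSeq promoters on GRCh38.p14. Calculations used Python 3.11.15, numpy 2.4.6, pandas 2.3.3 and scipy 1.17.1 and were tested on simulated data. Besides CAV1 and CLDN4, a further marker gene fixed for the cell type check is not reported here.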

Additional observations from a re-analysis of the deposited data

How the results depend on the processing

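No summed level and none of the 10 chaperone genes past the threshold changed sign under the alternatives tried, while HSP90AB1 and HSPA9 in RM, HSPE1 in HD and HSP90AA1 and HSPD1 with IL-6, which were below the threshold, did under at least 1 other scaling. Among the 55 other heat shock genes, 2 past the threshold changed sign by median ratio, DNAJB2 in HD (1.13 to -0.75) and BAG5 in RM (lower by 1 log2 unit to 0.16). Of the summed levels, counts and inducible ratios, 56 stayed within 1.5 times for a count, or within the counting interval for a level or ratio. Those include the count lower in RM, 7 in TPM, at 5 by CPM and with a pseudocount of 5, and the count lower in HD, 9 in TPM, at 6 by CPM and at 2 log2 units and 7 with a pseudocount of 5. The other 26 were as follows. At a threshold of 2 log2 units the genes past it downward were 0 with IL-6, 0 with IL-8 and 2 in RM. The IL-6 count upward was 0 at 2 log2 units, with a pseudocount of 5, by CPM and with HSPA1A and HSPA1B summed. A pseudocount of 0.1 gave 2 genes lower with IL-8. Median-ratio scaling gave 0 lower and 2 higher with IL-8 and 3 lower and 1 higher in RM, and CPM gave 1 higher in HD. By median ratio 14.4% of all genes tested were lower and 15.9% higher with IL-8, and 15.3 and 14.6% in RM. Shares past the threshold were not counted by CPM. On the log2 scale the summed level with IL-6 was -0.20, and -0.29 by CPM, -0.25 by median ratio and -0.14 without HSP90AB1. With IL-8 it was -0.68 and -0.20 by median ratio. In RM it was -0.78, -0.02 by median ratio and -1.07 without HSP90AB1. In HD it was -2.82, -3.07 without RNA5-8S5, -2.64 by CPM, -3.50 by median ratio and -2.06 without HSP90AB1. The inducible to constitutive ratio was 0.19 in LD and 0.138 in RM from summed reads, and 0.17 with IL-8 without HSPA1A and HSPA1B. Ratios from reads are an unlike measure, without the correction for transcript length that TPM holds. The cause of the shifts was otherwise not tested. Of the values of single chaperone genes 164 moved by less than their counting interval. The other 36 moved by more or had no interval, as for HSPA1A in RM and HSPB1 in RM and HD, with 0 reads. Of the ratios of pairs, 8 stayed within the interval and 11 did not when taken from reads, which are not corrected for transcript length. No paired analysis was possible because each condition is 1 library and the labels carry no replicate numbers, and no library could be left out. Depth limits HSPA1A, HSPA1B and HSPB1 in every library and most genes in HD, where the 10 genes had 271 reads.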
